A study of Homo sapiens with 9 samples.

Results

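The cytosolic ribosomal protein genes of U2-OS cells, 81 of the 60609 gene identifiers counted, are described here across cells that overexpress NCBP2 and empty-vector cells. They were chosen by symbol alone: a protein-coding gene of GENCODE with an RPL or RPS name and a number, RPLP0, RPLP1, RPLP2 or RPSA, leaving out RPS27L. Of these, 50 encode proteins of the large ribosomal subunit and 31 proteins of the small subunit. U2-OS is an established human osteosarcoma cell line, and NCBP2 is the subunit of the nuclear cap-binding complex that holds the methylated cap of new transcripts. In total 9 ribodepleted RNA-seq libraries were compared. Clone A1 and clone A4, both overexpressing NCBP2, gave 3 libraries each (replicates A, B and C), and 3 further clones that received the vector alone gave 1 library each (vector replicates A, B and C). Each NCBP2 line is therefore a single clone, whereas the vector group is made of separate clones. The labels do not say whether the libraries of 1 NCBP2 clone came from separate cultures, so the p-values measure only the spread between these libraries.

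Ribosomal proteins surround the ribosomal RNA of both subunits, and their genes must supply the subunits in matched amounts. Their mRNAs are among the most abundant of a growing cell and usually begin with a C followed by an unbroken run of pyrimidines, the 5′ terminal oligopyrimidine (TOP) motif, through which mTOR signalling and LARP1 adjust their translation and stability. Many of the genes carry small nucleolar RNAs in their introns, most have intronless pseudogene copies elsewhere in the genome, and a few have paralogs with a tissue-restricted role.

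The start of the transcript is a sequence feature that the choice by symbol did not use. A run was counted where the annotated start base is C and at least 5 pyrimidines (C or T, the sense strand only) follow each other from it. RefSeq promoters on GRCh38.p14 were listed for 64 of the 81 genes. Such a run began at 1 or more listed starts of 46 of those 64 genes (71.9%), against 5.14% of all 27305 genes in the same table. By start position the shares were 58.2% of 79 and 4.07% of 35116. The share was 70% of 40 listed large subunit genes and 75% of 24 listed small subunit genes. Among the 46 genes with a run, the median of the longest run was 8 bases, against 7 among the 1404 such genes in the whole table. Windows of 30 bases, 10 before the annotated start and 20 from it, are shown for genes whose values are described below, with the run in capitals where there is one, to let the starts be compared with the levels. RPS23 and RPS25 are the only members whose NCBP2 and vector libraries did not overlap. Among all genes, 2.26% did not overlap in the same direction, lower in NCBP2, and 1.47% in the other. RPS12 and RPL7A stood among the highest members per length. The RPL36A and RPL36AL pair and the RPL10 and RPL10L pair are paralogs that differ at the start.
RPS23, chr5:82278335-82278364, minus strand: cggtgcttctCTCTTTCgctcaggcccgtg
RPS25, chr11:119018324-119018353, minus strand: gcagcgcttcCTTTTTgtccgacatcttga
RPS12, chr6:132814559-132814588, plus strand: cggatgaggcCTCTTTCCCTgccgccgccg
RPL7A, chr9:133348208-133348237, plus strand: attccctttcCTTTCTCTCTCCTCCCgccg
RPL36A, chrX:101391001-101391030, plus strand: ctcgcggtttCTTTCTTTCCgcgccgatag
RPL36AL, chr14:49620607-49620636, minus strand: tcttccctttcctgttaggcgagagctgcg
RPL10, chrX:154398367-154398396, plus strand: ggaggagcgcCTCTTTCCCTTCggtgtggt
RPL10L, chr14:46651762-46651791, minus strand: gtagttaagagagcgcattttgacttcgag
The run was 16 bases long at RPL7A, 12 at RPL10, 10 at RPL36A and RPS12, 7 at RPS23 and 6 at RPS25. RPL36AL had a run of 3 bases and RPL10L had none. RPL19 and RPS29, described below, also had no run at their listed starts. No match says only that these letters are not at the annotated start.

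Counts in genes ranged from 29234022 to 50554080 per library, and reads that align to several places, which the counts leave out, made up 6.80% to 16.3% of all reads. By CPM (counts relative to the TMM-scaled library total), NCBP2 itself stood at 299, 348 and 305 in clone A1, at 796, 1035 and 456 in clone A4, and at 98.4, 90.6 and 98.3 in the vector libraries, so the labels and the targeted gene went the same way. Mesenchymal markers were high in all 9 libraries (VIM 1302 to 2082 CPM, COL1A1 532 to 1883 CPM, RUNX2 182 to 294 CPM), while COL1A2 was at most 1.15 CPM. The leukocyte marker PTPRC did not exceed 2.01 CPM, the epithelial markers EPCAM and CDH1 were at most 5.58 and 3.63 CPM, and TERT had no count in any library.

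Ribosomal protein genes took 1.68% to 2.22% of the counts in genes. Reads that align to several places are left out, and the loss per gene was not measured. These shares and the levels per length below may therefore be too low. All 81 passed the filter on low counts, and 80 had over 100 counts in every library, RPL3L being the exception. The 50 large subunit genes summed to 1.002%, 1.22% and 1.13% of gene counts in clone A1 (replicates A, B and C), to 1.07%, 1.10% and 1.19% in clone A4, and to 1.32%, 1.34% and 1.003% in the vector libraries. The 31 small subunit genes summed to 0.679%, 0.785% and 0.698% in clone A1, to 0.660%, 0.710% and 0.730% in clone A4, and to 0.871%, 0.880% and 0.673% in the vector libraries. Vector replicates A and B were above all 6 NCBP2 libraries for both subunits, and vector replicate C lay within the range of the NCBP2 libraries, near its lower end. As group means, the summed share was 1.84% ± 0.161 (SD, n = 3) in clone A1, 1.82% ± 0.0964 (n = 3) in clone A4 and 2.03% ± 0.306 (n = 3) in vector, so the difference between means is smaller than the spread of the vector group. Counting error is far smaller: the 95% Wilson interval of any of these summed shares extended at most 0.00466 percentage points to either side, and such intervals cover counting error only. In bulk RNA, fewer cells and less RNA per cell cannot be told apart.

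**Figure D1:**
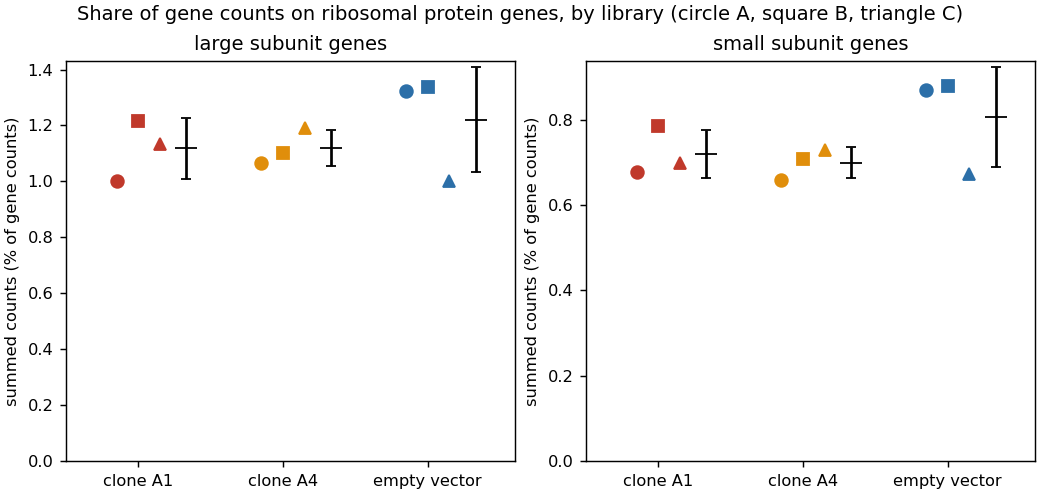
Share of gene counts (percent, vertical axis from 0) on the 50 large subunit genes (left) and the 31 small subunit genes (right) in each library, with replicates A, B and C as circle, square and triangle and the group mean ± SD (n = 3) beside them. Vector replicates A and B sit highest in both panels, and vector replicate C (1.003% and 0.673%) sits among the NCBP2 libraries.

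The balance between the subunits was narrow. Counts on large subunit genes were 1.48, 1.55 and 1.62 times those on small subunit genes in clone A1, 1.62, 1.55 and 1.63 times in clone A4, and 1.52, 1.52 and 1.49 times in vector. The clone A4 libraries all lay above the vector libraries, and the clone A1 libraries overlapped both groups. Named pseudogenes of the members, 1588 by symbol, held 0.0332% to 0.0420% of gene counts.

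By level per length, counted as CPM per kilobase of merged annotated exons, the vector libraries gave a median of 53.9 over the large subunit genes and 72.4 over the small subunit genes. RPL19, a protein that reaches across to the small subunit, led the large subunit at 238 ± 38.2 CPM per kilobase (SD, n = 3), followed by RPL7A at 215 ± 44.6 and RPL10A at 201 ± 27.4. These 3 do not differ beyond their spread. RPL3L at 0.0879 ± 0.0783, RPL17 at 2.48 ± 0.191 and RPL36A at 2.74 ± 0.246 CPM per kilobase stood lowest. Within the small subunit, RPS12 led at 364 ± 57.4, and RPS2, which lines the mRNA entry channel, stood near the top at 230 ± 58.1. RPS28 (10.2 ± 2.57) and RPS10 (4.001 ± 0.321) were among the lowest. Several of these low levels are uncertain: 32.9% of the exon bases of RPL17 and 31.5% of those of RPS10 also belong to read-through genes on the same strand (RPL17-C18orf32 and RPS10-NUDT3), as do 8.40% of those of RPL36A (RPL36A-HNRNPH2), and 49, 14 and 52 named pseudogenes carry copies of RPL17, RPS10 and RPL36A.

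The order depended on which length was used. RPS12 ranked 1 in its subunit by merged exons, 10 by the canonical transcript and 14 by coding length, while RPS20 ranked 13, 1 and 1. RPL19 ranked 1, 1 and 2 in the large subunit. RPS10 ranked 30 of 31 in the small subunit by all 3 lengths. Spearman's rho between the orders by merged and by canonical length was 0.899 over the 50 large subunit genes and 0.745 over the 31 small subunit genes, given as a description across genes that share the same libraries.

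**Figure D2:**
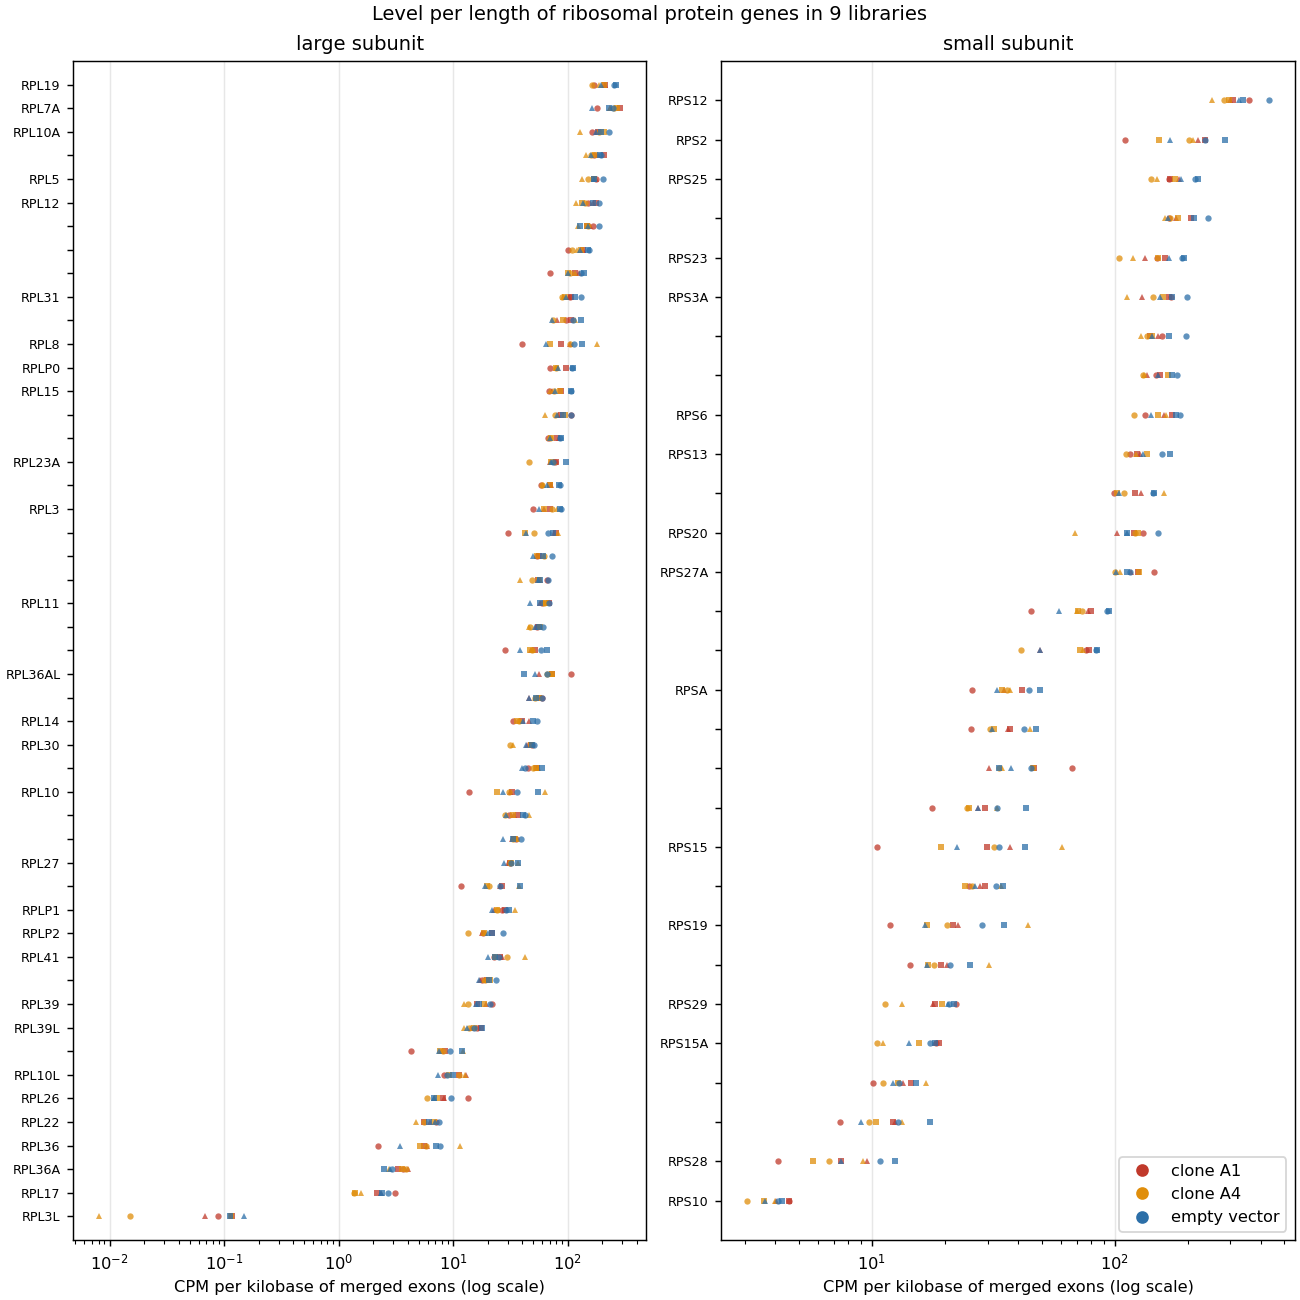
Level of ribosomal protein genes as CPM per kilobase of merged exons (log axis) in the 9 libraries, coloured by group, with replicates A, B and C as circle, square and triangle; genes are ordered by their vector mean, those not described in the text are unlabelled or not drawn, and the 1 library with no RPL3L count is not drawn. Large subunit genes span from 0.0879 (RPL3L) to 238 (RPL19) CPM per kilobase as vector means, and libraries of a gene scatter far less than genes differ.

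The paralogs, some of them with a restricted role, were detected at different levels in these cells. RPL3L, which takes the place of RPL3 in heart and skeletal muscle, had 0 to 17 counts per library, and 61.9% of the stranded counts at its locus lay on the opposite strand. RPL3, which reaches toward the peptidyl transferase centre, stood at 76.5 ± 17.9 CPM per kilobase of merged exons in vector. RPL10L, an intronless copy best known from testis, stood at 8.76 ± 1.29 CPM per kilobase and RPL10, which joins the large subunit late in its maturation, at 39.6 ± 14.2. RPL39L stood at 15.4 ± 2.31 and RPL39, which lines the nascent peptide tunnel, at 18.03 ± 2.79, a difference within their spread by merged exons but not by the canonical transcript (21.8 ± 3.28 against 98.4 ± 15.3). RPL36AL stood at 53.3 ± 12.2 and RPL36A at 2.74 ± 0.246, and at 14.3 ± 1.28 by its canonical transcript. Near-identical copies lose reads that align to both, so the split within each pair is uncertain.

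Strand-aware counting mattered for a few members. In the vector libraries, 74 of the 81 had counts without regard to strand that differed from their stranded counts by at most 5%. RPL30, RPS23, RPL23A and RPS3A kept 5.48%, 24.2%, 38.0% and 44.3% of their stranded counts, and each has annotated exons of another gene on the opposite strand, such as ATG10 at RPS23.

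The main comparison asked whether the level of any ribosomal protein mRNA differs between NCBP2-overexpressing and vector cells. No member passed an adjusted p of 0.05 in edgeR's quasi-likelihood test when the 6 NCBP2 libraries were set against the 3 vector libraries, where 0.0184% of the 21682 genes tested did. The lowest adjusted p among the members was 0.656, and DESeq2 also called none. Before adjustment, 8 members had a p under 0.05, against 5.71% of all genes. Of the 8, 1 was higher and 7 were lower in the NCBP2 libraries, against 2.75% and 2.96% of all genes. The median log2 fold change was -0.14 over the large subunit and -0.22 over the small subunit, against 0.02 over all genes tested. In all, 68 of the 81 were negative, against 46.98% of all genes. The 95% interval of the fold change lay within 2-fold in either direction for 77 of the 81, and RPL3L, RPL10 and RPS28 were among those where it did not.

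Much of that median rests on which vector clones are counted. Vector replicate C was the lowest vector library for 74 of the 81 members. Vector replicates A and B were both above all 6 NCBP2 libraries for 26 members, whereas vector replicate C was above all 6 for 3. Shares over all genes are not given for these counts, so they do not set the members apart from other genes. Without vector replicate C the median over all members was -0.30 in place of -0.17 (all genes 0.02). In that fit 70 members were negative and the lowest adjusted p by edgeR was 0.769. An unadjusted p under 0.05 was reached by 19 members. Shares of all genes are not given for that fit, so the counts of 70 and 19 do not set the members apart from other genes. The large subunit median was -0.07 without vector replicate A and -0.09 without vector replicate B. For the small subunit it was -0.10 without vector replicate B.

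RPS23 and RPS25 were the 2 members whose NCBP2 libraries were all below the vector libraries, where 2.26% of all genes did not overlap in that direction. In the other direction there were 0 members and 1.47% of all genes. The 2 of 81 members are near the share of all genes, so the count does not set the members apart. RPS23 (ENSG00000186468.13, chr5:82273320-82278396, minus strand, as all gene coordinates here from GENCODE on GRCh38) helps shape the decoding centre of the small subunit. Its CPM was 768, 788 and 677 in vector, 608, 654 and 540 in the A1 libraries and 422, 614 and 485 in the A4 libraries. Every vector library was above every NCBP2 library, with the narrowest gap between vector replicate C and clone A1 replicate B. The log2 fold change was -0.43 (SE 0.149), and edgeR's test gave an adjusted p of 0.656 (0.0130 before adjustment). RPS25 (ENSG00000118181.11, chr11:119015712-119018691, minus strand), a small subunit protein needed for initiation at several internal ribosome entry sites, had 318, 326 and 278 CPM in vector, 247, 249 and 273 in the A1 libraries and 209, 262 and 220 in the A4 libraries. Its log2 fold change was -0.34 (SE 0.130), at an edgeR adjusted p of 0.731.

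**Figure D3:**
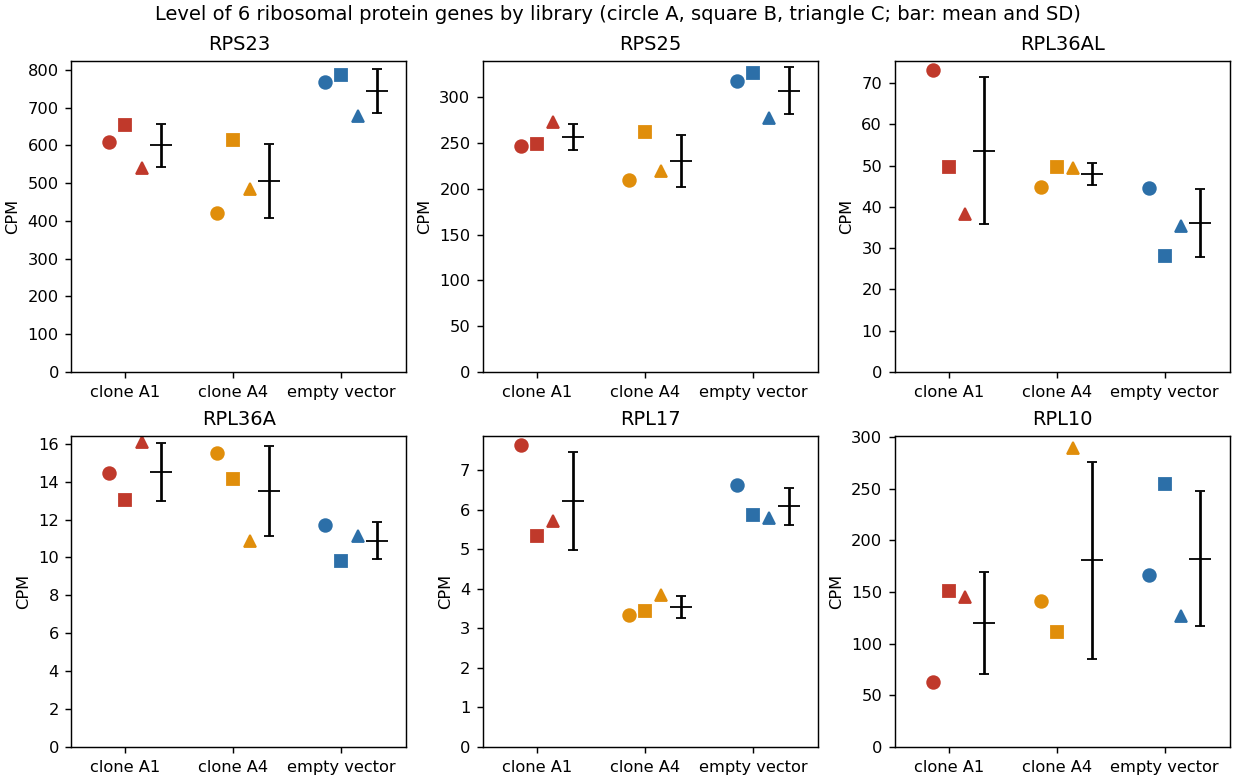
CPM of RPS23, RPS25, RPL36AL, RPL36A, RPL17 and RPL10 in each library (vertical axes from 0; circle, square and triangle are replicates A, B and C) with the group mean ± SD (n = 3). RPS23 and RPS25 are higher in all 3 vector libraries than in any NCBP2 library, RPL17 is lower in the 3 clone A4 libraries (3.34 to 3.85 CPM) than in all others, and RPL10 ranges from 63.2 to 289.7 CPM with overlapping groups.

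The other 6 members with an unadjusted p under 0.05 overlapped between the groups. RPL14, RPL15, RPL19, RPLP0, the base of the ribosomal stalk, and RPS13 had log2 fold changes between -0.33 and -0.31. RPL36AL, a protein near the tRNA exit site, was the 1 with a higher value, at 0.50 (SE 0.213). RPL36AL had 44.6, 28.2 and 35.3 CPM in vector, 73.1, 49.6 and 38.2 in the A1 libraries and 44.8, 49.6 and 49.5 in the A4 libraries. Its level in clone A1 replicate A was the highest and vector replicate A lay inside the NCBP2 range. None passed adjustment, the adjusted p ranging from 0.792 (RPS13) to 0.857 (RPL19) by edgeR.

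Clone A1 against vector again left no member past an adjusted p of 0.05, where 0.0646% of all genes passed. The lowest adjusted p was 0.627, for RPL36AL, the only member with an unadjusted p under 0.05 (7.51% of all genes, 3.24% higher in clone A1). Medians were -0.07 over the large subunit and -0.19 over the small subunit (all genes -0.02), with 58 of 81 negative against 51.61% of all genes. Without vector replicate C, 70 were negative (share of all genes not given) and the median of all members was -0.28 in place of -0.15. The large subunit median was -0.03, -0.04 and -0.19 without vector replicate A, B and C in turn, and -0.15 without clone A1 replicate B. For the small subunit it was -0.32 when vector replicate C was left out, -0.11 without vector replicate B and -0.12 without clone A1 replicate A. Clone A1 libraries were all above vector for 3 members, RPL36A, RPS27A (made as a fusion with ubiquitin) and RPS15A, and all below for 3, RPS13, RPS23 and RPS25, against 6.18% and 8.06% of all genes.

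RPL10 was among the members with the lowest fold changes in clone A1, and RPL36AL had the highest. RPL10 (ENSG00000147403.16, chrX:154389955-154409168, plus strand) stood at 63.2, 151 and 146 CPM in clone A1 and at 166, 254 and 127 CPM in vector. Clone A1 replicate A was the lowest library and the groups overlapped. The difference was a log2 fold change of -0.60 (SE 0.393) that was -0.29 without clone A1 replicate A and -0.28 without vector replicate B. RPL36AL differed by 0.57 (SE 0.246), and by 0.29 without clone A1 replicate A.

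Clone A4 against vector had no member past adjustment either, where 0.115% of all genes passed. The lowest adjusted p was 0.477, for RPS23. An unadjusted p under 0.05 was reached by 7 members (5.25% of all genes), all lower in clone A4 (2.75% of all genes in that direction): RPS23, RPL17, RPS25, RPS29, RPS12, RPL14 and RPS15A. Medians were -0.17 over the large and -0.23 over the small subunit (all genes 0.03), and 62 of 81 were negative against 46.43% of all genes. Without vector replicate C, 74 were negative, and the large and small subunit medians were -0.31 and -0.41 (all genes 0.02). In that fit 18 members had an unadjusted p under 0.05 by edgeR. Shares of all genes are not given for it, so the counts of 74 and 18 do not set the members apart from other genes. Without vector replicate B the large and small subunit medians were -0.09 and -0.13. Clone A4 libraries were all below vector for 9 members, RPL14, RPL17, RPL31, RPLP0, RPLP2, RPS12, RPS23, RPS25 and RPS29, and all above for RPL36AL, against 5.86% and 6.2% of all genes.

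RPL17 (ENSG00000265681.7, chr18:49488453-49492508, minus strand), a protein near the exit of the peptide tunnel, had 6.63, 5.86 and 5.78 CPM in vector, 7.64, 5.32 and 5.71 in the A1 libraries and 3.34, 3.44 and 3.85 in the A4 libraries. All 3 clone A4 libraries were below the other 6. Clone A4 differed from vector by -0.78 on the log2 scale (SE 0.275, with an edgeR p of 0.657 after adjustment) and from clone A1 by -0.81 (SE 0.276, adjusted p = 0.521). RPL41, the smallest ribosomal protein, stood at 32.5, 25.6 and 46.9 CPM in clone A4, set against 28.0, 25.8 and 22.3 in vector, a log2 fold change of 0.47 (SE 0.230) that was 0.18 without clone A4 replicate C. RPS29 had 111, 191 and 130 CPM in clone A4, set against 205, 215 and 202 in vector, and its log2 fold change was -0.52 (SE 0.198, adjusted p = 0.744 by edgeR). RPL3L had the lowest fitted value (-0.91, SE 1.41), from 2, 14 and 1 counts in clone A4 and 0, 16 and 17 in vector, and its 95% interval ran from -3.98 to 2.15.

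**Figure D4:**
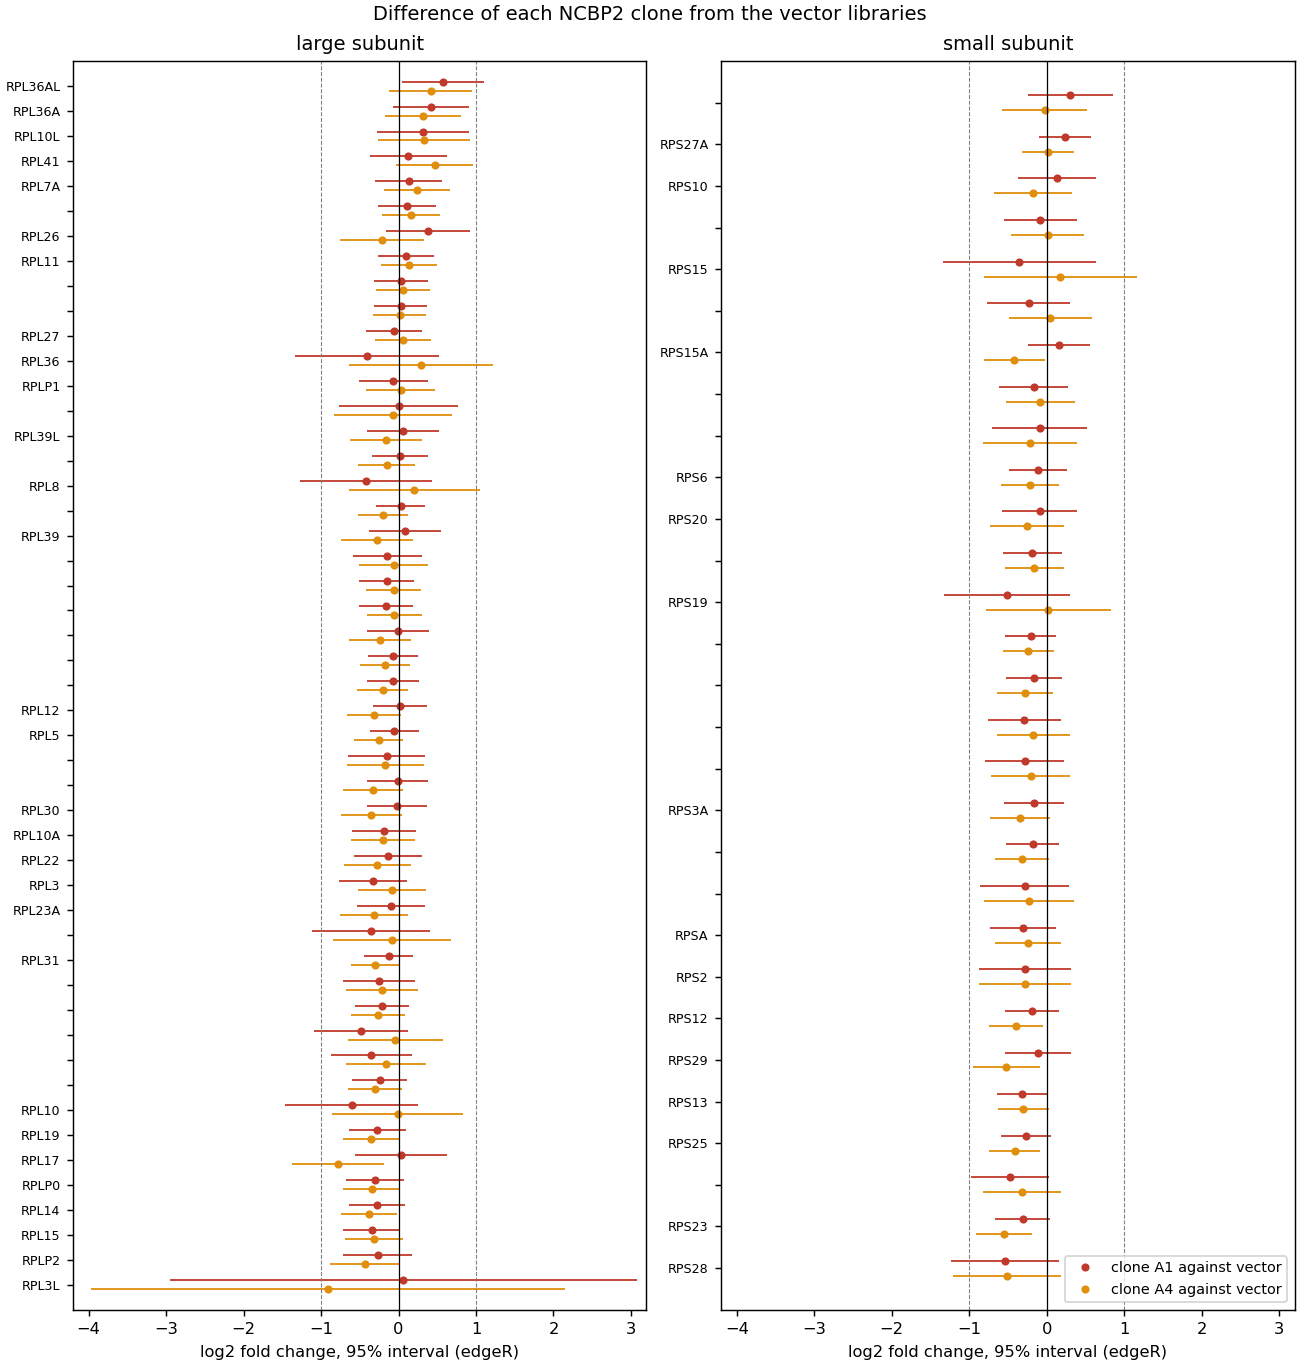
Log2 fold change (horizontal axis) of large subunit (left) and small subunit (right) genes, with those not described in the text unlabelled or not drawn, in clone A1 and clone A4 against the same 3 vector libraries, with 95% intervals from edgeR; dashed lines mark a 2-fold change. Most points lie left of 0 (58 of 81 for clone A1 and 62 of 81 for clone A4), and the widest interval belongs to RPL3L.

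Between the NCBP2 clones, 0 members passed adjustment, where 0.161% of all genes did. Medians were -0.05 and -0.03 for the large and small subunit (all genes 0.04), and 46 of 81 were negative against 46.75% of all genes. Under the alternatives these medians ran from -0.11 to 0.02 and from -0.15 to 0.02. Unadjusted p under 0.05 was reached by RPS15A, RPL17 and RPL26 (6.63% of all genes), each lower in clone A4 (2.82% of all genes in that direction), with log2 fold changes of -0.58, -0.81 and -0.59 and adjusted p of 0.450, 0.521 and 0.687 by edgeR. RPS15A stood at 123, 126 and 122 CPM in clone A1 and at 70.2, 104 and 73.9 CPM in clone A4, without overlap. Libraries of clone A4 were all below those of clone A1 for 7 members (RPL12, RPL17, RPL26, RPL31, RPS10, RPS12 and RPS15A, against 5.72% of all genes) and all above for RPL27 (7.92%). The highest value belonged to RPL36 (0.70, SE 0.429), at 0.23 without clone A4 replicate C and at 0.38 without clone A1 replicate A. RPL3L, at -0.97 (SE 1.42), was lowest, and leaving out replicate A, B or C of clone A4 gave -0.56, -2.87 and -0.50. It was -1.55 with a replicate block and -0.25 without regard to strand. Both clone comparisons with vector share the vector libraries.

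GC content moved with the deviations of single libraries. Across the 81 members, the deviation of a library from the mean log2 CPM of all 9 correlated with the GC content of the canonical transcript at r = -0.69 in clone A1 replicate A, 0.65 in vector replicate B and 0.50 in clone A4 replicate C, and between -0.38 and 0.28 in the other 6. These are descriptions over genes that share a library. The 14 members with at least 55% GC, among them RPL36, RPL8, RPS15 and RPS19, had a median deviation of -0.93 in clone A1 replicate A, where the other protein-coding genes of that class had -0.77. In clone A1 against vector their median log2 fold change was -0.35 (other protein-coding genes -0.21), and without clone A1 replicate A it was -0.07 (0.01). It was -0.18 (0.02) without vector replicate B, -0.58 (-0.36) without vector replicate C and -0.54 (-0.37) without clone A1 replicate C. The 23 members under 45% GC had a median of -0.02 in the same comparison (other protein-coding genes 0.12), and leaving out 1 library moved it between -0.11 and 0.02, reached on leaving out replicates C and A of the vector group. The part of GC content in the fold changes of single members was not tested.

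**Figure D5:**
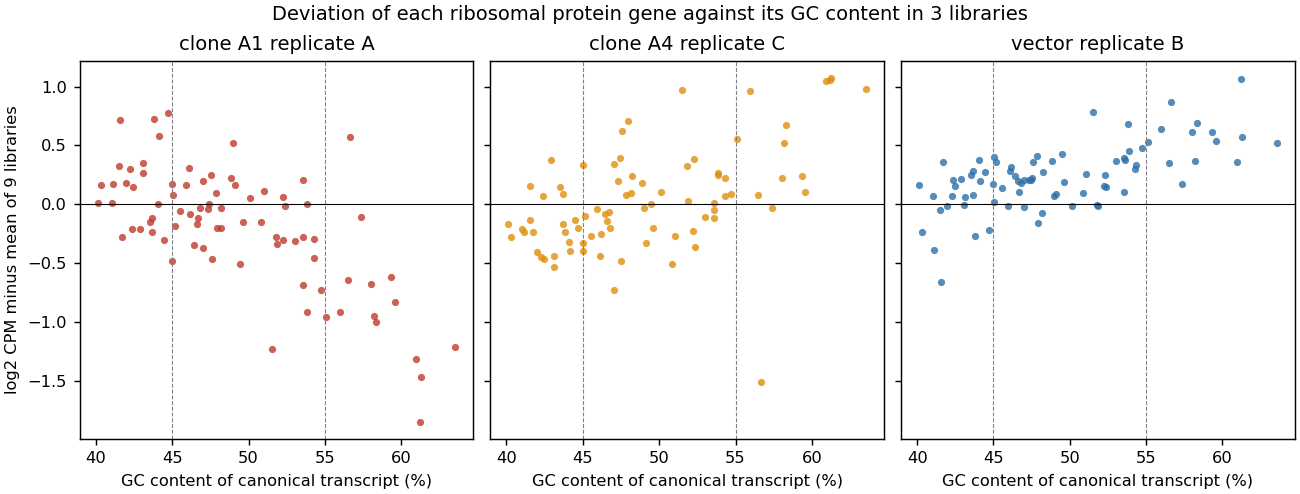
Deviation of each member's log2 CPM from its mean over the 9 libraries (vertical axis) against the GC content of its canonical transcript (percent, horizontal axis) in 3 libraries; dashed lines mark 45% and 55%. Points fall with GC in clone A1 replicate A (r = -0.69) and climb in clone A4 replicate C (r = 0.50) and vector replicate B (r = 0.65).

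Spread and shared movement over the libraries are given as a description. The members' median SD of log2 CPM over the 9 libraries was 0.251, against 0.373 for the other 13902 protein-coding genes tested, whose median level was lower (mean log2 CPM 4.31 against 7.55). Across the 9 libraries, the correlation of a member with the mean of the others had a median of 0.60, and 50 members exceeded 0.5, against 24.4% of the other protein-coding genes. RPS6 (0.94), the small subunit target of S6 kinase, and RPL19 (0.92) followed the mean most closely. In 10 members the correlation was below 0, lowest in RPL36A (-0.57) and RPL36AL (-0.52), which encode nearly the same protein. The non-member protein-coding genes with the profile most like the members' mean were RBM15B (r = 0.99), RPGRIP1 (0.96), OLIG2 (0.95), BCL7A (0.93) and ZNF853 (0.92), picked from 13902 genes over 9 libraries and given with no test.

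Members were also described by TOP start and by snoRNA hosting, with no test between the classes. The median log2 fold change of NCBP2 against vector was -0.16 over the 46 members with a run at a listed start, -0.18 over the 18 without one and -0.15 over the 17 with no listed start. The 28 members that hold 60 annotated snoRNAs had a median of -0.20 and the other 53 a median of -0.12, with 0 called in either set.

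Genes that work with ribosomal proteins gave few calls. Of 19 tested translation factors listed as having TOP mRNAs, 0 passed in any of the 4 comparisons. By the rule above, 13 of the 14 genes of that list with a RefSeq start had a run. In NCBP2 against vector 15 were negative, against 46.98% of all genes, with a median log2 fold change of -0.14. EEF1A1, the elongation factor that delivers aminoacyl-tRNA, stood at 1959 ± 191 CPM (SD, n = 6) in NCBP2 libraries and 2480 ± 270 CPM (n = 3) in vector, at -0.34 (SE 0.126, adjusted p = 0.697 by edgeR). PABPC1, which binds poly(A) tails, was at -0.49 (SE 0.156, adjusted p = 0.570) in clone A4, EEF2 at -0.43 (SE 0.290) in clone A1, and EIF3E at -0.56 (SE 0.346) in clone A4 against clone A1. Of 18 regulators of TOP mRNAs, 0 passed and the median was 0.00. SSB, the La protein, had the widest difference among them, 145 ± 43.2 CPM in clone A1 and 77.1 ± 25.6 CPM in vector, at 0.91 (SE 0.285, adjusted p = 0.386 by edgeR).

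The 8 tested ribosomal proteins and relatives outside the symbol rule, such as FAU and RPL22L1, had 0 calls and a median of -0.04 in NCBP2 against vector. RPL22L1, the paralog of RPL22, differed most in clone A4, at 14.9 ± 4.15 CPM in clone A4 and 24.5 ± 3.27 CPM in vector (-0.72, SE 0.254, adjusted p = 0.661 by edgeR), and FAU, made as a fusion with a ubiquitin-like protein, differed most in clone A1 (-0.40, SE 0.300). Ribosome assembly factors (59 tested) had 0 calls and a median of 0.06 in NCBP2 against vector. EMG1, a methyltransferase of small subunit assembly, was at -0.74 (SE 0.214, adjusted p = 0.452) in clone A4 against vector and -0.89 (SE 0.215, adjusted p = 0.239) against clone A1. PPAN and NOP2, with the widest fitted differences in the other comparisons, stood under 1 CPM in each group. RNA polymerase I and its factors (16 tested, median 0.11) and transcription factors of ribosomal protein promoters (10 tested, median -0.05) also had 0 calls, with POLR1G at 0.51 (SE 0.305) and E2F1 at 0.25 (SE 0.330) the widest differences in NCBP2 against vector. In clone A4 against clone A1, GABPB1, a subunit of the factor that binds GGAA elements, stood at -0.61 (SE 0.201, adjusted p = 0.477).

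Free RPL5 and RPL11 bind MDM2 when ribosome assembly is disturbed, so a list of p53 pathway genes was read beside the members. All 9 were negative in NCBP2 against vector, against 46.98% of all genes, with a median log2 fold change of -0.37. In every comparison 0 passed adjustment, and a p53 response was not tested. ZMAT3, a p53-induced RNA-binding protein, had 278 ± 39.4 CPM in vector, 148 ± 11.1 in clone A1 and 215 ± 36.7 in clone A4 (n = 3 each). For clone A1 the log2 fold change was -0.91 (SE 0.173, with an edgeR p of 0.1048 after adjustment), and for clone A4 -0.37 (SE 0.172, adjusted p = 0.952). CDKN1A, the cell cycle inhibitor p21, was the widest between the clones, at 0.61 (SE 0.227, adjusted p = 0.592) in clone A4 against clone A1.

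Mitochondrial ribosomal proteins, which serve the separate ribosome of that organelle, held the 1 call in these lists. That call was in clone A4 against clone A1, where 0.161% of all genes passed. Of 77 tested, MRPL51 fell between the clones, from 74.4 ± 7.97 CPM in clone A1 to 35.4 ± 3.58 CPM in clone A4 (n = 3 each), a log2 fold change of -1.07 (SE 0.165, with an edgeR p of 0.0261 after adjustment). The call was lost without any 1 of clone A1 replicates B and C, clone A4 replicates A, B and C and vector replicates A and C, where the adjusted p ran from 0.0552 to 0.207. Genes beside MRPL51 and EMG1 are not given here, and a difference of a whole chromosome segment was not tested. No other mitochondrial member passed in any comparison, and the median in NCBP2 against vector was -0.01, with 41 of 77 negative. MRPL41 had the widest difference there, at 1.13 (SE 0.487, adjusted p = 0.832 by edgeR).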

How the data were processed

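The authors deposited, for each library, raw counts of reads per gene without regard to strand and for each strand; STAR 2.7.1a and GRCh38 are named per the submitters' processing notes, and the annotation used for counting is not given in the sources used here. The column of the gene's strand was used, since it held most stranded counts. Rows for reads outside any single gene (44.5% to 63.6% of reads) stayed out. Per the labels' protocols ribosomal RNA was removed, although the labels' molecule field names polyA RNA. Of 60609 identifiers, 60295 matched GENCODE release 44 without version; promoters are RefSeq's (GRCh38.p14).

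Tests used edgeR 4.0.16 (R 4.3.3): filterByExpr, TMM, robust quasi-likelihood fits over all 9 libraries with 2 groups (6 NCBP2 against 3 vector) or 3 groups, Benjamini-Hochberg over all 21682 genes tested, threshold 0.05. Log2 CPM used a prior count of 2. DESeq2 1.42.0 was an alternative. No 2 libraries agreed within sampling noise (lowest chi-square per degree of freedom 26.9).

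The members and lists were chosen with earlier results of these data known. Genes named are members past the threshold (0 here), the 2 with the highest and the 2 with the lowest fold change in each clone comparison, those whose NCBP2 and vector libraries do not overlap, the 3 highest and lowest per length in each subunit and 4 paralog pairs; per list, genes past the threshold or else the widest difference, of which some of low level or size are not printed. Some members this rule names are not reported here. RPS29, RPS15A, RPL26, RPS6, RPS20 and the members with a low unadjusted p, non-overlapping clones, high GC content or strand differences were named after their values were seen.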

Additional observations from a re-analysis of the deposited data

Results flagged for a closer look

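RPL36AL stood at 73.1 CPM in clone A1 replicate A, apart from the other 5 NCBP2 libraries, by a gap larger than is usual among 6 values drawn from a single group. RPL41 stood at 46.9 CPM in clone A4 replicate C, apart in the same way. In all, 13 genes were examined for a library that stands apart among the 6 NCBP2 libraries, and chance marks about 5% of groups drawn alike. RPL36AL and RPL41 were named for their fold changes, which a single high library can raise, and the 6 libraries come from 2 clones. The 5% rate therefore does not apply to these genes.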

How the results depend on the processing

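Over 16 alternatives, the members called stayed at 0 in every comparison and subunit but one: with no filter on low counts, 1 large subunit gene was called in clone A1 against vector. Called genes over the whole table moved more. In the order NCBP2, A1 and A4, each against vector, then A4 against A1, DESeq2 called 104, 238, 161 and 232 genes and no filter 20, 312, 163 and 231. With single libraries left out, the counts ran from 1 (without vector A) to 8 (without A1 A), 3 (without A1 B, vector A or vector C) to 14 (without vector B), 7 (without vector A) to 41 (without A1 A) and 10 (without A4 A) to 56 (without vector B). The small subunit median in clone A4 against vector ran from -0.41 to -0.13 and lay at -0.41 without vector replicate C. MRPL51 kept its direction in all alternatives, added after seeing the data, with log2 fold changes from -1.17 to -0.99. The cause of these moves was not tested.

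The replicate letters showed no clear pairing of the samples, though these values do not settle it. Same-letter correlations ran from -0.10 to 0.18 and different-letter correlations from -0.27 to 0.22. With a replicate block, 13, 38, 53 and 51 genes were called in the same order, and 0 members.

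Against nuclear protein-coding counts, the large subunit shares were 1.31%, 1.33% and 1.45% and the small subunit shares 0.842%, 0.832% and 0.962% in clone A1, clone A4 and vector. Without regard to strand, the small subunit share in clone A4 was 0.657% and the small subunit median in vector 44.4 CPM per kilobase. By canonical transcript the medians were 158 and 332 CPM per kilobase for the large and small subunit, and by coding length, added after seeing the data, 335 and 503. Depth limits RPL3L alone among the members.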
